A study of Mus musculus with 8 samples.

Results

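The A-, B-, D- and E-type cyclins were examined as a family of 10 genes (*Ccna1*, *Ccna2*, *Ccnb1*, *Ccnb2*, *Ccnb3*, *Ccnd1*, *Ccnd2*, *Ccnd3*, *Ccne1* and *Ccne2*), taken by gene symbol from the 25239 genes counted in fetal ovaries, where mitotic and meiotic germ cells may use different paralogs. All 10 were present in the count data. In *Bmpr1a*-cKO ovaries *Ccnb1* transcripts were 2.44 times and *Ccna2* transcripts 1.55 times as abundant as in control ovaries, whereas *Ccnb3* fell to 31.5%, *Ccnd1* to 56.9% and *Ccne2* to 63.3% of the control level. *Ccnb2* was 1.21 times as abundant as in control ovaries, without overlap between the genotypes but below the fold threshold used. *Ccnd2*, *Ccnd3* and *Ccne1* overlapped between the genotypes, and *Ccna1* was too scarce to be tested.

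RNA-Seq had been performed on whole ovaries of C57BL/6 mice at E14.5. Control embryos were *Bmpr1a* fl/fl, and *Bmpr1a*-cKO embryos were *Bmpr1a* fl/fl;*Oct4*-Cre Cre/WT, with a tamoxifen-inducible Cre driven by *Oct4* that removes the BMP receptor gene *Bmpr1a* from germ cells while the somatic cells keep it. The 2 genotypes were littermates, and their mothers received 1 mg 4-hydroxytamoxifen and 0.5 mg progesterone on 3 days of gestation (9.5 dpc, 10.5 dpc, then 11.5 dpc), so that both groups were exposed to the drugs, whereas the control embryos carried no Cre. Each of the 4 libraries per genotype was a pool of 2 ovary pairs from a total of 8 embryos per genotype across 6 litters. The litters behind each pool are not named, so that no fit could include the litters that the genotypes share. The p-values measure the spread between pools, and litter cannot be told apart from pool.

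Cyclins are the activating subunits of cyclin-dependent kinases (CDKs). D-type cyclins work with CDK4 and CDK6 in G1 and E-type cyclins with CDK2 at the start of S phase, followed by A-type cyclins with CDK2 and CDK1 through S and G2 phase and by B-type cyclins with CDK1 in M phase. In the fetal ovary, germ cells leave mitotic proliferation, pass through premeiotic S phase and enter meiotic prophase, and some family members, among them *Ccnb3* and *Ccna1*, are best known from the germline.

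The libraries held 8562961 to 15365052 counts. Levels are given as CPM (the reads of a gene scaled to library size) after TMM scaling, in which 3 counts, the limit that a count of 0 allows, correspond to 0.189 to 0.358 CPM depending on the library. *Bmpr1a* itself ranged from 199.5 to 236.5 CPM (control) and from 184.9 to 209.1 CPM (*Bmpr1a*-cKO) (Log2FC -0.16, SE 0.064, FDR 0.0692). Somatic cells keep the gene and a count over the whole gene does not separate the deleted stretch, so this value is no check of the deletion. *Ddx4*, a germ cell marker, and *Foxl2*, a pregranulosa cell marker, were both present. *Ddx4* was at 142 ± 21.9 CPM (control) and 153 ± 32.3 CPM (*Bmpr1a*-cKO), and *Foxl2* at 118 ± 3.93 and 79.4 ± 7.30 CPM (SD, n = 4).

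A differentially expressed gene (DEG) had an absolute Log2FC above 0.5 with an FDR below 0.05 over the 14249 genes tested. Of the 9 cyclins tested, 5 were DEGs, against 10.2% of all genes tested. The 2 upregulated cyclins were *Ccnb1* and *Ccna2*, beside 6.11% of all genes called in that direction, and the 3 downregulated ones were *Ccnb3*, *Ccnd1* and *Ccne2*, beside 4.06%. An FDR below 0.05 without regard to the fold was reached by 6 cyclins (29.8% of all genes), *Ccnb2* being the additional one. The libraries of the genotypes did not overlap for the same 6 cyclins (27.9% of all genes). The median Log2FC was -0.03 over the 9 cyclins and -0.0042 over all genes tested. Because whole ovaries were sequenced, fewer cells expressing a cyclin and less RNA per cell cannot be told apart.

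**Figure D1:**
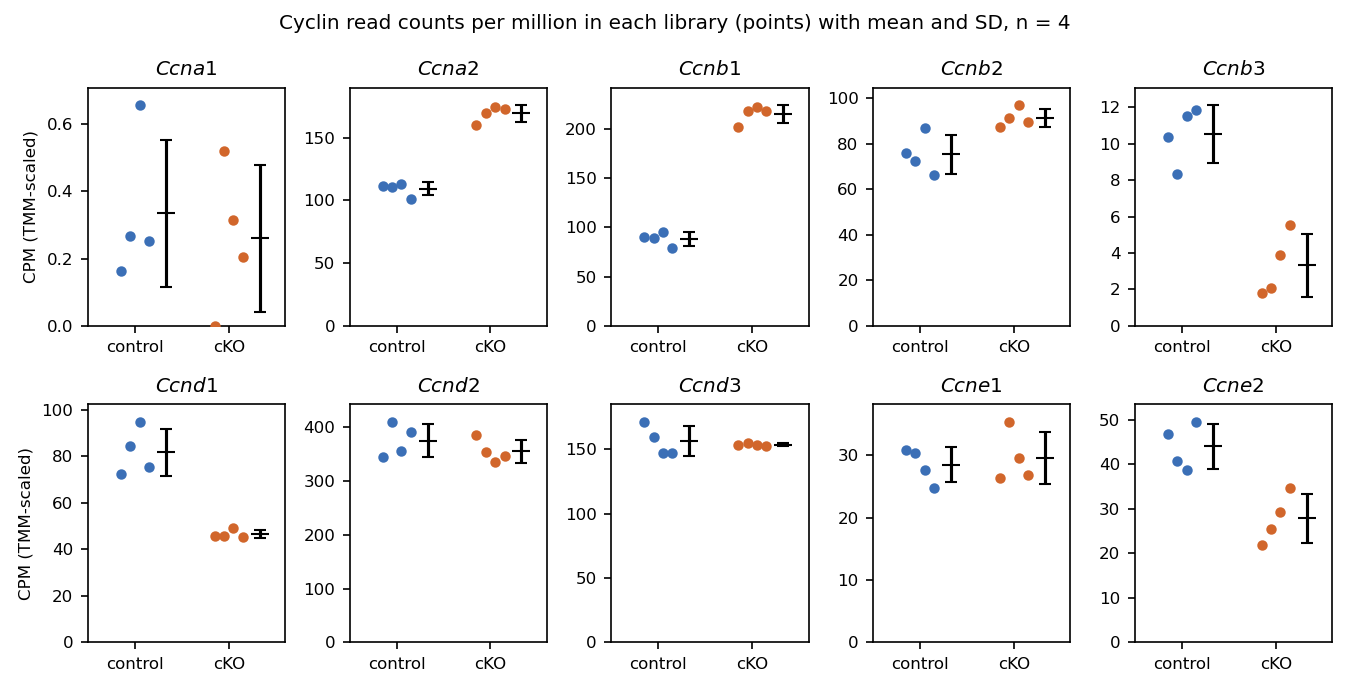
CPM (TMM-scaled, linear axes starting at 0) of the 10 cyclins in each library. Points are libraries 1 to 4 of each genotype from left to right, and the bar beside them gives the mean ± SD (n = 4). The genotypes are separated without overlap for *Ccna2*, *Ccnb1*, *Ccnb2*, *Ccnb3*, *Ccnd1* and *Ccne2*, and *Ccna1* stays below 1 CPM in every library.

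The D-type cyclins, which link extracellular signals to the G1 kinases, were represented by 3 transcripts of which *Ccnd1* changed. *Ccnd1* (ENSMUSG00000070348.5; mm10 chr7:144929931-144939925, minus strand) was at 72.4, 84.4, 94.9 and 75.3 CPM in control libraries 1 to 4 and at 45.7, 45.7, 49.2 and 45.4 CPM in *Bmpr1a*-cKO libraries 1 to 4. The highest *Bmpr1a*-cKO library lay below the lowest control library, and the *Bmpr1a*-cKO pools were closely spaced. The mean fell from 81.7 ± 10.1 to 46.5 ± 1.81 CPM (Log2FC -0.81, SE 0.082, 95% interval -0.99 to -0.64, FDR 4.30e-06). Of its exonic bases, 23.4% overlap *LTO1* on the opposite strand, for which the Log2FC was -0.11 (FDR 0.416).

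*Ccnd2* (ENSMUSG00000000184.12; chr6:127125162-127152193, minus strand) is known for its role in granulosa cells. Control libraries were at 344.5, 410.3, 354.9 and 390.8 CPM and *Bmpr1a*-cKO libraries at 385.8, 353.8, 336.0 and 346.3 CPM. The genotypes overlapped, and the Log2FC of -0.08 (SE 0.068, FDR 0.427) had a 95% interval of -0.22 to 0.07. *Ccnd3* (ENSMUSG00000034165.16; chr17:47505051-47599691, plus strand), the remaining D-type paralog, ranged from 147 to 172 CPM in control libraries. The *Bmpr1a*-cKO libraries were between 152.9 and 155.3 CPM. Its *Bmpr1a*-cKO libraries all fell inside the control range, and the Log2FC was -0.03 (SE 0.061, 95% interval -0.15 to 0.10, FDR 0.794). *Bysl* covers 4.11% of its exonic bases on the opposite strand (Log2FC 0.40, FDR 0.00373). For *Ccnd2* and *Ccnd3* the interval lies inside the fold threshold for a DEG in either direction.

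The E-type paralogs, both activators of CDK2, differed from each other. *Ccne2* (ENSMUSG00000028212.16; chr4:11191351-11204779, plus strand) was at 46.9, 40.8, 38.7 and 49.5 CPM in control libraries 1 to 4 and at 21.9, 25.4, 29.2 and 34.7 CPM in *Bmpr1a*-cKO libraries 1 to 4. The genotypes did not overlap, although *Bmpr1a*-cKO library 4 came close to the lowest control library. The mean fell from 44.0 ± 5.08 to 27.8 ± 5.48 CPM (Log2FC -0.65, SE 0.12, 95% interval -0.90 to -0.40, FDR 0.000761). *Ints8*, which covers 17.4% of its exonic bases on the opposite strand, had a Log2FC of -0.19 (FDR 0.0499).

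*Ccne1* (ENSMUSG00000002068.16; chr7:38097984-38107534, minus strand) was at 30.9, 30.4, 27.7 and 24.8 CPM in control and at 26.3, 35.4, 29.6 and 26.9 CPM in *Bmpr1a*-cKO libraries. The lowest and the highest *Bmpr1a*-cKO library lay on either side of most control libraries. Its Log2FC was 0.06 (SE 0.10, 95% interval -0.15 to 0.28, FDR 0.681), and its sign turned when single libraries were left out.

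Of the A-type cyclins, *Ccna2* (ENSMUSG00000027715.9; chr3:36564865-36572150, minus strand), the A-type cyclin of dividing cells, rose. It was at 111.5, 110.8, 112.9 and 101.5 CPM in control libraries 1 to 4 and at 159.8, 169.9, 174.6 and 172.7 CPM in *Bmpr1a*-cKO libraries 1 to 4. All *Bmpr1a*-cKO pools lay well above all control pools. The mean rose from 109 ± 5.19 to 169 ± 6.61 CPM (Log2FC 0.63, SE 0.058, 95% interval 0.51 to 0.76, FDR 1.69e-06). Scaled to the summed counts of 10 germ cell markers in place of TMM, the Log2FC was 0.35 (FDR 0.186), and the median of all genes moved to -0.29. This scaling shifts every gene by nearly the same amount, so the distance of 0.64 between *Ccna2* and that median only restates the TMM value. *Exosc9* covers 12.5% of its exonic bases on the opposite strand and had a Log2FC of 0.08 (FDR 0.547).

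*Ccna1* (ENSMUSG00000027793.6; chr3:55045469-55055501, minus strand), the A-type cyclin known for its role in male meiosis, had 2, 3, 7 and 4 counts in control libraries 1 to 4 and 0, 7, 3 and 3 counts in *Bmpr1a*-cKO libraries 1 to 4. These correspond to 0.335 ± 0.219 and 0.260 ± 0.217 CPM (SD, n = 4), and the count of 0 in *Bmpr1a*-cKO library 1 allows up to 0.358 CPM. It did not pass the filter on low counts, and no difference was detectable at this depth (Log2FC -0.21, SE 0.638, FDR 0.86 without the filter).

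The 3 B-type cyclins, the M-phase partners of CDK1, moved apart in direction and size. Their promoters are shown because this is the widest divergence within a cyclin class. The stretches are the 150 bases upstream of the transcription start in RefSeq (GRCm38.p6), 5′ to 3′ on the coding strand, for *Ccnb1* at chr13:100786487-100786636, *Ccnb2* at chr9:70421555-70421704 and *Ccnb3* at chrX:7041620-7041769, all on the minus strand. Capitals mark motifs known from cell cycle promoters, namely the CCAAT box and the run TTTAAA, and both strands were searched for these and for a related motif spelled TTTGAA.
Ccnb1: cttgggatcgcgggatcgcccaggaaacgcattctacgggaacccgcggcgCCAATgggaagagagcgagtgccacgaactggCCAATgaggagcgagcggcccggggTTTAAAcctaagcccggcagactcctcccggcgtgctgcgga
Ccnb2: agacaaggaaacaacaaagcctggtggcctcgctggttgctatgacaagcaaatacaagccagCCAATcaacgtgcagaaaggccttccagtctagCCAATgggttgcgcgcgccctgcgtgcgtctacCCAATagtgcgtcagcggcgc
Ccnb3: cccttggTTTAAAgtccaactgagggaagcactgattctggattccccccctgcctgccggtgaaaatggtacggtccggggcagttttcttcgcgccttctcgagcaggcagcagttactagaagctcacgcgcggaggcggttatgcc
In the 250 bases before the RefSeq start, *Ccnb1* held CCAAT at 99 and 67 bases and TTTAAA at 42 bases upstream. GENCODE, used for the gene positions, starts *Ccnb1* at 100786570, inside the printed stretch. The CCAAT at 67 bases and the TTTAAA at 42 bases therefore lie within the gene as GENCODE annotates it. *Ccnb2* held CCAAT at 87, 54 and 21 bases upstream, with TTTGAA at 167 bases, outside the printed stretch. *Ccnb3* held no CCAAT, and it held TTTAAA at 185 and 143 bases upstream, the former outside the printed stretch. Among 32851 RefSeq promoters over the same 250 bases, 33.8% held at least 1 CCAAT, 10.1% at least 2 and 2.79% at least 3. TTTGAA was present in 16% and TTTAAA in 12.1%, and 1.51% held TTTAAA at least 2 times. A match of letters is a description and not a binding site. Of the other members, the promoter of *Ccna1* held CCAAT on the opposite strand at 107 bases, *Ccne1* held TTTAAA at 15 bases, and 1 of the 2 *Ccnd3* promoters held CCAAT at 108 bases. *Ccna2*, *Ccnd1*, *Ccnd2* and *Ccne2* were without an entry.

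*Ccnb1* (ENSMUSG00000041431.16; chr13:100778650-100786570, minus strand), the principal mitotic cyclin, was at 90.4, 89.3, 94.97 and 78.6 CPM in control libraries 1 to 4. It was at 202.0, 218.2, 222.0 and 218.3 CPM in *Bmpr1a*-cKO libraries 1 to 4, so that the lowest *Bmpr1a*-cKO pool exceeded the highest control pool by more than the whole range within either genotype. The mean rose from 88.3 ± 6.91 to 215 ± 8.94 CPM (Log2FC 1.29, SE 0.065, 95% interval 1.15 to 1.43, FDR 6.92e-09). It had the lowest FDR among the cyclins. GENCODE vM21 lists 7 pseudogene copies of *Ccnb1*, of which *Ccnb1-ps* is 99.2% identical over 1287 bases. The counted genes include none of the 7, so that the handling of reads shared with them is not known, and the level of *Ccnb1* is uncertain to that extent.

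*Ccnb2* (ENSMUSG00000032218.7; chr9:70407692-70421547, minus strand), the second mitotic B-type cyclin, was at 76.1, 72.5, 86.7 and 66.2 CPM in control and at 87.4, 91.5, 96.9 and 89.5 CPM in *Bmpr1a*-cKO libraries. The lowest *Bmpr1a*-cKO library was just above the highest control library. The *Bmpr1a*-cKO mean was 91.3 ± 4.10 CPM against 75.4 ± 8.60 CPM in control (Log2FC 0.28, SE 0.076, 95% interval 0.12 to 0.44, FDR 0.0124), which is below the fold threshold for a DEG. Without control library 4 the FDR was 0.0581 (Log2FC 0.21), and under germ cell marker scaling the Log2FC was 0.0044 (FDR 0.988).

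*Ccnb3* (ENSMUSG00000051592.14; chrX:6979652-7041619, minus strand), a B-type cyclin required for the first meiotic division of oocytes, was at 10.4, 8.32, 11.5 and 11.9 CPM in control libraries 1 to 4, from 94 to 188 counts. In *Bmpr1a*-cKO libraries 1 to 4 it was at 1.79, 2.08, 3.87 and 5.53 CPM, from 15, 28, 37 and 81 counts. The genotypes did not overlap, and the *Bmpr1a*-cKO pools differed widely, with a coefficient of variation of 52.4% against 15.2% in control. The mean fell from 10.5 ± 1.598 to 3.32 ± 1.74 CPM (Log2FC -1.62, SE 0.25, 95% interval -2.15 to -1.09, FDR 0.000195). This was the largest fall among the 9 cyclins tested, and it had the widest interval.

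**Figure D2:**
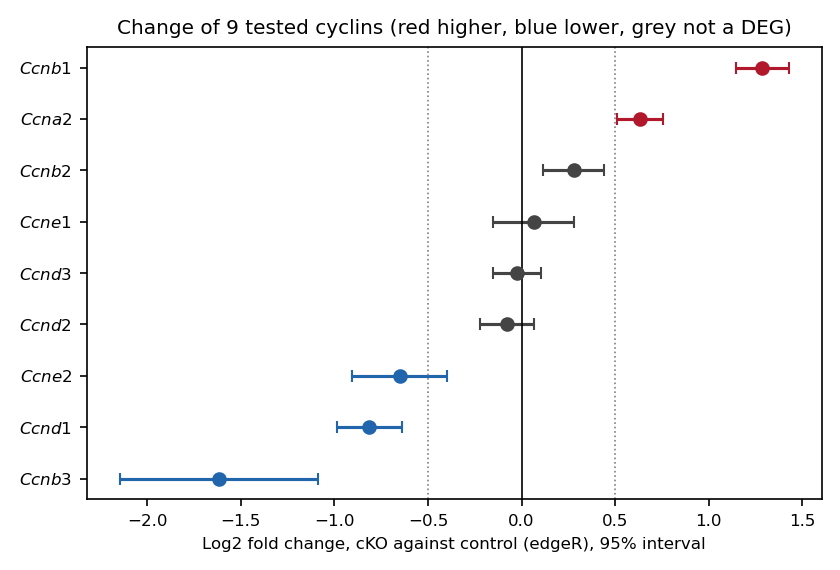
Log2FC of *Bmpr1a*-cKO against control ovaries (x axis) for the 9 cyclins tested, with 95% intervals from the quasi-likelihood fit of edgeR (4 libraries per genotype). Dotted lines mark the fold threshold of 0.5 in each direction. *Ccnb1* at 1.29 and *Ccnb3* at -1.62 form the ends, and the intervals of *Ccne1*, *Ccnd3* and *Ccnd2* include 0.

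Levels of different cyclins were compared as CPM per kilobase of annotated exon. In control ovaries *Ccnb2* (49.3 ± 5.62) and *Ccnd2* (39.9 ± 3.26) were the most abundant per kilobase, with library ranges that overlapped. *Ccna2* followed at 26.7 ± 1.27, apart from both neighbours. *Ccnb1* (21.0 ± 1.64), *Ccnd3* (17.8 ± 1.35) and *Ccnd1* (17.4 ± 2.15) overlapped, as did *Ccne2* (12.6 ± 1.45) and *Ccne1* (10.7 ± 1.05). The germline paralogs were last, with *Ccnb3* at 2.30 ± 0.350 and *Ccna1* at 0.182 ± 0.119 CPM per kilobase.

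In *Bmpr1a*-cKO ovaries the order per kilobase differed in the middle. *Ccnb2* remained first at 59.6 ± 2.68, and *Ccnb1* came next at 51.0 ± 2.12, ahead of *Ccna2* (41.5 ± 1.62) and *Ccnd2* (37.8 ± 2.29), which overlapped. *Ccnd3* was at 17.5 ± 0.128. *Ccne1* (11.1 ± 1.56), *Ccnd1* (9.87 ± 0.384) and *Ccne2* (7.96 ± 1.57) followed, and neighbours in this order overlapped. *Ccnb3* was at 0.727 ± 0.381 and *Ccna1* at 0.142 ± 0.118. Of the summed level of the 10 cyclins per kilobase, *Ccnb1* held 10.6% in control and 21.5% in *Bmpr1a*-cKO ovaries and *Ccna2* held 13.5% and 17.5%, while *Ccnd1* held 8.77% and 4.16%, *Ccne2* 6.39% and 3.35%, and *Ccnb3* 1.17% and 0.305%. The order among genes depends on the length used. Per kilobase of the longest annotated transcript, *Ccnd2* (59.3) was ahead of *Ccnb2* (49.3) in control ovaries, and *Ccnb1* (86.4) was first in *Bmpr1a*-cKO ovaries. By that length, *Ccnd3* (40.5) came before *Ccna2* (36.8) in control ovaries, and *Ccna2* overlapped *Ccnb1* (35.5).

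**Figure D3:**
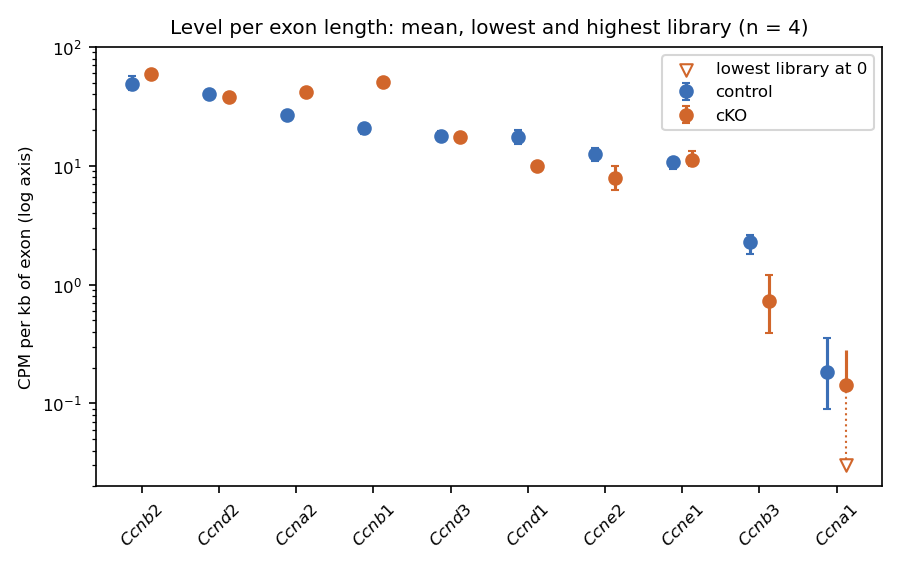
Level of the 10 cyclins as CPM per kilobase of exon (log axis), ordered by the control mean. Points are means of 4 libraries and bars run from the lowest to the highest library. The open triangle stands for the *Ccna1* library at 0, which a log axis cannot show. *Ccnb1* moves from 21.0 in control to 51.0 in *Bmpr1a*-cKO ovaries and passes *Ccna2* and *Ccnd2*.

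Ratios of read counts within a library do not depend on the scaling between libraries. They are given as a description without a test and without correction for gene length. Each ratio mixes the germ cells and somatic cells of whole ovaries, so it does not show which paralog a cell uses. Ratios with *Ccnb1* share the uncertainty of its level from the pseudogene copies. The ratio of *Ccnb1* to *Ccnb2* was 1.19, 1.23, 1.10 and 1.19 in control libraries 1 to 4 and 2.31, 2.39, 2.29 and 2.44 in *Bmpr1a*-cKO libraries 1 to 4. Every *Bmpr1a*-cKO pool thus held more *Ccnb1* reads per *Ccnb2* read than any control pool. The ratio of *Ccnb3* to *Ccnb1* was 0.115, 0.0933, 0.121 and 0.151 in control and 0.00886, 0.00954, 0.0174 and 0.0253 in *Bmpr1a*-cKO libraries, with means of 0.120 ± 0.0238 and 0.0153 ± 0.00774. This ratio of the meiotic to the mitotic B-type cyclin had the largest separation of those computed. It pairs the cyclin with the largest fall with the one with the largest rise, so the separation follows from their Log2FC. The ratio of *Ccnb1* to *Ccna2* was 0.808 ± 0.0273 in control and 1.27 ± 0.00943 in *Bmpr1a*-cKO ovaries, without overlap.

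The ratio of *Ccne2* to *Ccne1* was 1.52, 1.34, 1.40 and 1.997 in control and 0.833, 0.719, 0.986 and 1.29 in *Bmpr1a*-cKO libraries. The ratio for the E-type pair was lower in every *Bmpr1a*-cKO pool than in any control pool, with library 4 the highest of both genotypes. The ratio of *Ccnd1* to *Ccnd2* was 0.210, 0.206, 0.267 and 0.193 in control and 0.118, 0.129, 0.146 and 0.131 in *Bmpr1a*-cKO libraries, which did not overlap. The ratio of *Ccnd2* to *Ccnd3* overlapped, at 2.41 ± 0.287 and 2.31 ± 0.142.

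**Figure D4:**
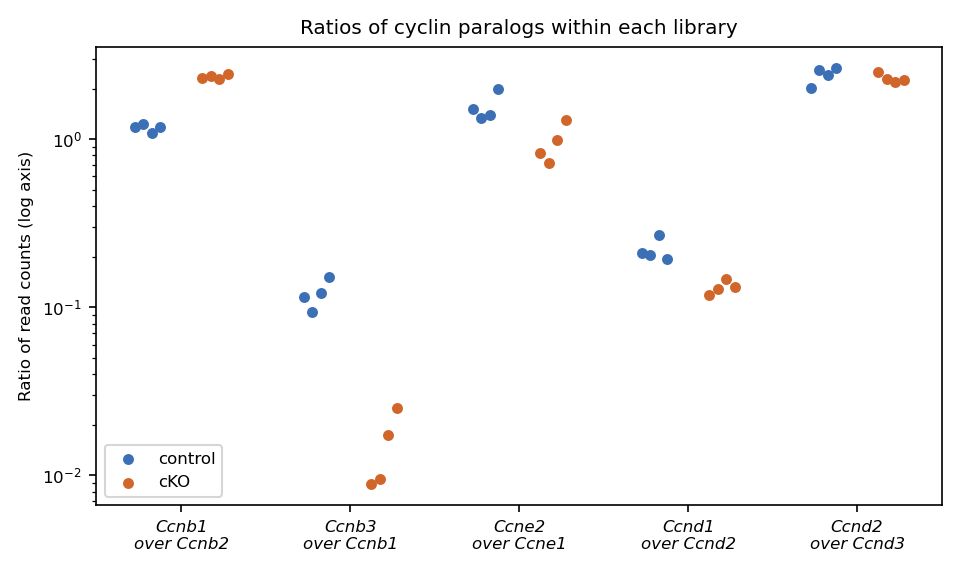
Ratios of read counts between cyclin paralogs in each library (log axis), with libraries 1 to 4 of each genotype from left to right. The ratio of *Ccnd2* to *Ccnd3* overlaps between the genotypes at about 2.41 and 2.31, and the other 4 ratios do not overlap.

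Libraries of one genotype also varied in a common pattern for some cyclins. Relative to the *Bmpr1a*-cKO mean on the log2 scale, *Ccnb3* stood at -0.70, -0.50, 0.35 and 0.84 and *Ccne2* at -0.32, -0.11, 0.09 and 0.34 in libraries 1 to 4. Both were lowest in *Bmpr1a*-cKO library 1 and highest in library 4, which among the *Bmpr1a*-cKO libraries were the shallowest and the deepest. The middle libraries did not follow depth, as library 2 held 13599939 and library 3 held 9840774 counts while both genes were lower in library 2. Relative to the control mean, *Ccnb3* stood at -0.0084, -0.32, 0.14 and 0.18 in control libraries 1 to 4. *Ccne2* stood there at 0.099, -0.0998, -0.18 and 0.18. The signs were opposite in control libraries 1 and 3, and the spread was narrower than in *Bmpr1a*-cKO libraries. Over the 8 libraries, Pearson's r of these deviations was 0.85 for *Ccnb3* with *Ccne2*. It was 0.97 for *Ccna2* with *Ccnb1* and 0.89 for *Ccnb1* with *Ccnb2*, where control library 4 and *Bmpr1a*-cKO library 1 were low for all 3 genes. In contrast, r was -0.41 for *Ccnd1* with *Ccne2* and 0.07 for *Ccnb3* with *Ccnd1*, although all 3 of these genes fell in *Bmpr1a*-cKO ovaries. With cyclins that were higher in *Bmpr1a*-cKO ovaries, r of *Ccnd1* was 0.73 for *Ccnb2*, 0.58 for *Ccnb1* and 0.46 for *Ccna2*. It was -0.52 for *Ccnd1* with *Ccnd3*. Both genes of a pair come from the same library and share its depth and scaling, so these values describe the 8 libraries.

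**Figure D5:**
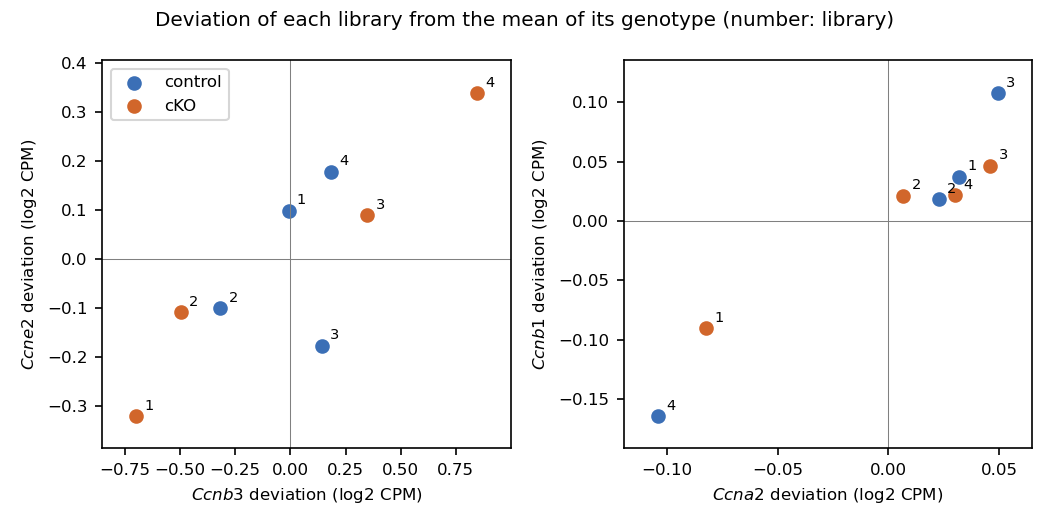
Deviation of each library from the mean of its genotype, in log2 CPM, for *Ccnb3* (x axis) and *Ccne2* (y axis) on the left and for *Ccna2* (x axis) and *Ccnb1* (y axis) on the right. Numbers are library numbers. *Bmpr1a*-cKO libraries 1 and 4 sit at opposite corners on the left, and control library 4 and *Bmpr1a*-cKO library 1 are low on the right.

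The genes most similar in pattern were taken as those with the highest Pearson's r of log2 CPM over the 8 libraries, among genes with a mean of at least 5 CPM. For *Ccnb3* these were *Spdya* (r = 0.9977), *Dmrtc2* (0.9966) and *Zcwpw1* (0.9923), and r of the deviations within genotypes was 0.99, 0.987 and 0.965. For *Ccne2* they were *Rad51ap2* (0.995), *Pdlim5* (0.9903) and *Pdik1l* (0.9819), with 0.987, 0.972 and 0.936 within genotypes. *Spdya* encodes a CDK2 activator of meiotic telomeres. For *Ccnb1* and *Ccna2*, the lists included each other (0.998) and *Mbp* (0.9981 and 0.9973), with *Bub3* (0.9973), a spindle checkpoint gene, for *Ccnb1* and *Klf8* (0.9972) for *Ccna2*.

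For *Ccnd1* the nearest genes were *Dlx3* (0.9911), *Cdx2* (0.9908) and *Dusp5* (0.9873), which encode a pair of homeobox transcription factors and an ERK phosphatase. None of these was among the nearest genes of *Ccnb3* or *Ccne2*, which shared none with each other either. *Ccnb2* was nearest to *Mtmr12* (0.9894), *Ciapin1* (0.9872) and *Rab11fip1* (0.9856). For the cyclins without a change, the highest r was 0.9876 (*Ccnd2* with *Zkscan1*), 0.9418 (*Ccne1* with *Unc50*) and 0.9137 (*Ccnd3* with *Tmem14c*). The remaining nearest genes of *Ccnd2* were *Kif5b* and *Timp3*, those of *Ccne1* were *Cenph* and *Mrps10*, and those of *Ccnd3* were *Slc35c1* and *Rpp25*. A high r over both genotypes follows in part from the shared difference between them.

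Among 10 CDK partners and accessory subunits, 2 rose and 1 fell as DEGs, with a median Log2FC of 0.24. Over all genes tested, 10.2% were DEGs (6.11% up and 4.06% down), the background for the counts of this and the following lists. *Cdk1*, the kinase of the A- and B-type cyclins, rose from 47.7 ± 2.04 to 74.9 ± 5.11 CPM (Log2FC 0.65, FDR 5.24e-06), and the CDK-binding subunit *Cks2* rose from 22.6 ± 5.78 to 40.5 ± 7.64 CPM (Log2FC 0.86, FDR 0.000689) with overlapping libraries. *Spdya*, the gene nearest to *Ccnb3*, fell from 19.4 ± 3.86 to 4.68 ± 2.95 CPM (Log2FC -1.98, FDR 7.80e-05). Of the D-type partners, *Cdk4* passed the FDR threshold but not the fold threshold, at 263 ± 6.76 and 354 ± 12.3 CPM (Log2FC 0.43, FDR 3.33e-05), a direction opposite to that of *Ccnd1*. *Cdk6* had a Log2FC of -0.09 (FDR 0.353). *Cdk2*, the partner of the E-type cyclins, had a Log2FC of 0.04 with a 95% interval of -0.10 to 0.17 (FDR 0.694), beside the fall of *Ccne2*.

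Of 7 CDK inhibitors tested (*Cdkn2b* was too low), 1 was a DEG, which in a list of this length is near that background, and the median Log2FC was -0.13. This was *Inca1*, which encodes an inhibitor that binds cyclin A1 with CDK2 and which fell from 11.8 ± 3.35 to 3.17 ± 1.63 CPM (Log2FC -1.85, FDR 0.000139). Of 11 ubiquitin ligase subunits that act on cyclins, 2 were DEGs, both upregulated (median Log2FC 0.14). *Ccnf*, a cyclin-box protein that serves as a ligase subunit in G2 phase, rose from 56.0 to 92.4 CPM (Log2FC 0.72, FDR 2.44e-06), and *Cdc20*, the activator of the anaphase-promoting complex that marks B-type cyclins for destruction, rose from 89.4 to 145 CPM (Log2FC 0.70, FDR 1.80e-05).

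Of 22 transcription regulators of cyclin genes, 4 were DEGs, all upregulated (median Log2FC 0.18). They were the E2F-type repressors *E2f8* (Log2FC 0.90, FDR 6.22e-07) and *E2f7* (Log2FC 0.52, FDR 0.000399), *Nfyb* (Log2FC 0.65, FDR 0.000101), a subunit of the factor that binds CCAAT, and *Rb1* (Log2FC 0.59, FDR 0.000322), the retinoblastoma protein inactivated by cyclin D kinases. *E2f7*, close to the fold threshold, was not called under upper quartile scaling, with library size alone or without control library 1, control library 4 or *Bmpr1a*-cKO library 2 (Log2FC 0.47 to 0.50). Of the upregulated genes named from these lists, *E2f8* was the one still called under germ cell marker scaling. Among 18 other cyclin family genes tested, 1 rose and 1 fell, *Ccnf* and *Cntd1*, which is near the 10.2% of all genes. *Cntd1*, a cyclin-like gene of meiotic crossovers, fell from 12.3 ± 0.397 to 7.19 ± 1.53 CPM (Log2FC -0.77, FDR 0.000723).

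Of 3 genes for meiotic RNA-binding proteins, *Meioc* fell from 122 ± 11.9 to 36.5 ± 14.9 CPM (Log2FC -1.72, FDR 1.08e-05). *Meioc* and *Ythdc2* encode partners in a complex known to lower mitotic transcripts such as *Ccna2* as germ cells enter meiosis. *Ythdc2* passed the FDR threshold but not the fold threshold, at 58.3 ± 4.09 and 41.3 ± 1.98 CPM (Log2FC -0.49, FDR 9.77e-05), and *Rbm46* had a Log2FC of -0.31 (FDR 0.0630).

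Germ cell markers as a group did not move one way beside the cyclins. Of 10, 4 rose and 3 fell as DEGs, and their summed level was 678 to 900.0 CPM (control) and 696 to 1113 CPM (*Bmpr1a*-cKO), which overlap. *Dazl*, the most abundant of them, rose from 327 to 506 CPM (Log2FC 0.63, FDR 0.00101) and made up 41.7% to 44.8% of the sum (control) and 51.8% to 55.2% (*Bmpr1a*-cKO). Without it the sums were 395 to 519 and 313 to 498 CPM, so that the germ cell marker scaling used above rests in large part on 1 DEG. *Dppa3* rose (Log2FC 1.58, FDR 5.99e-05) and *Tex101* fell (Log2FC -1.72, FDR 2.09e-05), whereas *Ddx4* had a Log2FC of 0.11 (FDR 0.561). Pregranulosa cell markers were lower in *Bmpr1a*-cKO ovaries beside *Ccnd1*, with a summed level of 1591 to 1823 CPM (control) and 1319 to 1560 CPM (*Bmpr1a*-cKO). Of the 9, 8 had an FDR below 0.05, beside 29.8% of all genes, and 1, *Foxl2*, was a DEG (Log2FC -0.57). Macrophage markers, a small signal, were higher beside *Ccnb1* and *Ccna2*, with summed levels of 33.1 to 41.3 CPM (control) and 44.0 to 55.4 CPM (*Bmpr1a*-cKO), with 3 of 6 as DEGs. Sertoli cell markers summed to 19.0 to 21.1 CPM (control) and 14.9 to 16.8 CPM (*Bmpr1a*-cKO). Of the 5, 1 had an FDR below 0.05, which is not above the 29.8% of all genes.

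The summed levels overlapped between genotypes for markers of stroma (2254 to 2972 and 2247 to 2821 CPM), endothelium (285 to 335 and 266 to 310.0 CPM), mesonephric tubules (19.3 to 23.4 and 14.3 to 22.2 CPM) and steroidogenic cells (42.2 to 48.4 and 25.02 to 43.6 CPM). Among these, *Hsd3b1* fell as a DEG (Log2FC -0.63). Of 5 erythroid markers, 4 (*Hba-a1*, *Hba-a2*, *Hbb-bs* and *Hbb-bt*) were listed at 0 in all libraries, and the summed level, all of it *Alas2*, was 23.7 to 44.6 CPM in control and 20.9 to 42.3 CPM in *Bmpr1a*-cKO libraries. The part of the pregranulosa, macrophage and Sertoli cell markers in the cyclin results was not tested.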

How the data were processed

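RNA-Seq of fetal ovary pools was analysed for 4 control and 4 *Bmpr1a*-cKO samples. Per the labels and methods, the authors trimmed reads with Trimmomatic 0.39, checked them with FastQC 0.11.9, mapped them to mm10 with STAR 2.5.2 and deposited whole-number read counts per gene symbol, without normalization. The libraries were strand-specific, and the annotation and strand setting of the counting are not given in the sources used here, so that overlapping genes on either strand may share reads. A second table deposited by the authors holds signal (CPM) for 14244 genes, and the genes it lists were used only as another filter.

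CPM and Log2FC were obtained from these counts with edgeR 4.0.16 under R 4.3.3. Genes with low counts were removed by filterByExpr, TMM gave the scaling of libraries, and the genotypes were compared by the quasi-likelihood F test (two-sided), with the Benjamini-Hochberg method applied to every tested gene. The SE is the absolute Log2FC divided by the square root of F, and intervals are 95%. A prior count of 2 entered the log2 CPM values per library. Means are given ± SD of 4 libraries. Limits from 3 counts cover counting error only. No sample was left out, and no libraries held identical counts. Positions and exon lengths came from GENCODE vM21, and promoters from RefSeq (GRCm38.p6) for 6 of the 10 cyclins. The fit was tested on simulated data.

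The genes named are the 10 cyclins, up to 5 DEGs of each other list by absolute Log2FC, 8 fixed CDK and RNA-binding genes, and the 3 genes nearest to each cyclin. The cyclins and lists were chosen with earlier results of these data known, and 1 gene of the erythroid marker list is not reported here, so that this list departs from the one first written. Alternatives were the likelihood ratio test, limma-voom (limma 3.58.1) and DESeq2 1.42.0, other scalings and filters, *Rn45s* removed, a replicate block, each library left out, other thresholds and another gene length.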

Additional observations from a re-analysis of the deposited data

Results flagged for a closer look

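A single library stood apart from the other 3 of its genotype for 2 of the 10 cyclins, by the size of its gap relative to the range (Dixon's criterion at 95%). *Ccnd1* was at 49.2 CPM in *Bmpr1a*-cKO library 3, where the gap was 0.941 of the range, and this library still lay below every control library. *Ccnd3* was at 155.3 CPM in *Bmpr1a*-cKO library 2, where the gap was 0.899 of a narrow range. In all, 20 groups of 4 libraries were examined, and chance flags about 1 in 20 such groups.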

How the results depend on the processing

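Cyclin DEGs numbered 5 (2 up and 3 down) under every alternative test, filter and library left out, and under 3 of the 4 other scalings. Under germ cell marker scaling, where *Dazl*, itself a DEG, held 41.7% to 55.2% of the summed counts and which moved the median Log2FC of all genes to -0.29 and gave 346 genes up and 1691 down in place of 871 and 578, there were 4 (1 up and 3 down), *Ccna2* being lost (Log2FC 0.35, FDR 0.186), and 4 in place of 6 cyclins with an FDR below 0.05. The same scaling gave 1 DEG in place of 3 among CDK partners, 3 in place of 1 among CDK inhibitors, 1 in place of 2 among ubiquitin ligase subunits, 2 in place of 4 among transcription regulators and 1 in place of 2 among other cyclins. It turned the median negative for CDK partners (-0.05), transcription regulators (-0.10), ubiquitin ligase subunits (-0.16) and other cyclins (-0.24). At an absolute Log2FC above 1, 2 cyclins were called. Over the 20 alternatives, the Log2FC was 1.01 to 1.32 for *Ccnb1*, -2.04 to -1.42 for *Ccnb3*, -1.08 to -0.74 for *Ccnd1* and -0.99 to -0.56 for *Ccne2*, with an FDR of at most 0.00502.

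Signs turned for 2 cyclins without a call. *Ccnd3* ranged from -0.063 to 0.022 with single libraries left out (0.022 without control library 1). *Ccne1* ranged from -0.039 (without *Bmpr1a*-cKO library 2) to 0.11, with -0.0092 without control library 4, and was -0.23 under germ cell marker scaling. With control library 4 left out, 5 in place of 6 cyclins had an FDR below 0.05. The cause was not tested.

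Replicate numbers are not stated to pair the libraries, and same-numbered libraries did not deviate together throughout (r of 0.20, 0.16, 0.11 and -0.09 across genes). With the replicate number as a replicate block, 5 cyclins were DEGs, 6 had an FDR below 0.05, and 1457 genes were DEGs in all. Low depth limits *Ccna1*, with at most 7 counts in a library.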
